A study of Homo sapiens with 12 samples.

Results

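The integrated stress response core comprised 10 genes of the 60649 in the count tables: ATF4, ATF5, DDIT3, TRIB3, CHAC1, ASNS, SESN2, DDIT4, PPP1R15A and NUPR1. They were taken by symbol and all are reported whatever their values, but the list was chosen with earlier results of these data known. All 10 passed the expression filter that left 16683 genes for testing. RNA was sequenced from SBC3, an established human small cell lung cancer line grown as spheroids. Each of 4 groups held 3 libraries: control, teriflunomide, lurbinectedin, and both drugs together, called the combination. Teriflunomide inhibits DHODH, a mitochondrial enzyme of pyrimidine synthesis, and lurbinectedin binds DNA and blocks transcription. The labels used here give no dose, exposure time or vehicle, and do not say whether the 3 libraries of a group came from separate cultures, so the p-values measure only the spread between these libraries.

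In the integrated stress response, the kinases HRI, PKR, PERK and GCN2 phosphorylate the translation initiation factor eIF2. General protein synthesis then falls while the mRNA of ATF4 is translated more, so that ATF4 activity can rise without a change in its mRNA. ATF4 and its partners induce genes for amino acid synthesis and transport, inhibitors of mTORC1, and a phosphatase subunit that reverses the eIF2 phosphorylation. Several of these genes are also known to answer to other regulators, such as p53 for SESN2.

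Total counts ranged from 23206414 to 33222162 per library. The mitochondrially encoded share of counts was 6.26% to 7.17% in control, 8.42% to 22.6% with teriflunomide, 13.8% to 17.0% in the lurbinectedin group and 13.1% to 24.9% in the combination group. The third teriflunomide library (22.6%) and the second combination library (24.9%) stood apart from the others of their groups, and results that rest on them are given with and without them. Of the lineage markers of small cell lung cancer, INSM1 had 0 counts in all 12 libraries and NCAM1 and EPCAM stayed below 0.1 CPM, while SYP was at 14.1 to 36.2 CPM, NEUROD1 at 1.5 to 6.51 CPM, YAP1 at 60.2 to 343 CPM and KRT8 at 196 to 444 CPM. Of 7 markers of blood, stromal and endothelial cells, PTPRC, CD68, PDGFRB, PECAM1 and CDH5 were at 0 to 0.545 CPM, and the collagen genes COL1A1 and COL1A2 were at 89.9 to 276 CPM. The summed level of these 7 markers came almost wholly from COL1A1 and COL1A2. It was 519 to 549 CPM in control, 466 to 485 with teriflunomide, 187 to 220 in the lurbinectedin group and 199 to 227 in the combination group. Its part in the results below was not tested. In bulk RNA, fewer cells of a type and less RNA per cell cannot be told apart.

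Promoter stretches that hold the letters searched are shown for members and for ATF3, since ATF4 is known to act through the first element searched. RefSeq windows on GRCh38.p14, from 250 bases before to 50 bases after the annotated start, were found for 9 of the 10 genes, some of which have more than 1 annotated start. The letters TGATGNAA, the core of the composite element that C/EBP and ATF proteins bind, were searched on both strands. They occurred in the windows of CHAC1 and ASNS, 2 of 9 members, and in that of ATF3, against 4.46% of all 27305 genes with a window and 3.62% of all 35116 windows. Capitals mark the match, and each sequence reads 5′ to 3′ on the strand of its gene.
CHAC1 (chr15:40953221-40953320, plus strand): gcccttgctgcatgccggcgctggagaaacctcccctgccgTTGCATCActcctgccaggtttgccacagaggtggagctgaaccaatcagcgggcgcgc
ASNS (chr7:97872423-97872522, minus strand): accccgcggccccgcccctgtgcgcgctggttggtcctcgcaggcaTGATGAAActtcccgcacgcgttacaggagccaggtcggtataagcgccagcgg
ATF3 (chr1:212565170-212565269, plus strand): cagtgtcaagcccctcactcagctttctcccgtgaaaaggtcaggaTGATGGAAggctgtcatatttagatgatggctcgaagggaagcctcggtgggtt
The cyclic AMP response element TGACGTCA, which reads the same on both strands, occurred in the window of PPP1R15A, 1 of 9 members, against 2.25% of all genes and 1.85% of all windows.
PPP1R15A (chr19:48872317-48872416, plus strand): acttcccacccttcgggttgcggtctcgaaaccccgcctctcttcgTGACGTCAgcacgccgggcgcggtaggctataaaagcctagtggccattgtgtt
CCAAT boxes, searched on both strands, occurred in 4 of 9 members, against 39.7% of all genes and 34.6% of all windows, and at least 2 of them in 10.8% of windows. DDIT3, SESN2 and DDIT4 held 2 each, marked in capitals below. None of the 3 motifs occurred in the windows of ATF4, ATF5 or TRIB3. CHAC1 held 3 CCAAT boxes. Among 27 other ATF4 targets with a window, 9 held TGATGNAA, as did 1 of 13 p53 targets. A match is a description of the letters only.
DDIT3 (chr12:57520551-57520650, minus strand): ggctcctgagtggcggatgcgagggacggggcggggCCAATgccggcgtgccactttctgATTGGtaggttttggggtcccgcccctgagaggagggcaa
SESN2 (chr1:28259352-28259451, plus strand): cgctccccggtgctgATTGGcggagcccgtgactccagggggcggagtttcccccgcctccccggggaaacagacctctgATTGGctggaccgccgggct
DDIT4 (chr10:72273785-72273884, plus strand): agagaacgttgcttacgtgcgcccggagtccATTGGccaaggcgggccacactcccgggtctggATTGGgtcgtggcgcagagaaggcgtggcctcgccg

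Lurbinectedin against control asked how the core stood when the transcription blocker was given alone. DDIT3, PPP1R15A, SESN2, ASNS and NUPR1 were all several-fold higher, CHAC1 rose less, and ATF4 and DDIT4 were only slightly higher. The values of DDIT3, ASNS and NUPR1 are uncertain because they share bases with other genes, as given below. TRIB3, a member known as a target of both ATF4 and DDIT3, fell. By edgeR's quasi-likelihood test, 8 members were called higher and 1 lower at an adjusted p under 0.05, and ATF5 was not called. Lurbinectedin moved much of the transcriptome, with 71.6% of all tested genes called, 36.0% higher and 35.7% lower, so the total of 9 of 10 called stands against a high background. The groups did not overlap for 8 members that were higher and 1 that was lower, against 42.4% and 40.8% of all genes. The median log2 fold change was 1.43 over the 10 members and 0.05 over all 16683 genes.

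**Figure D1:**
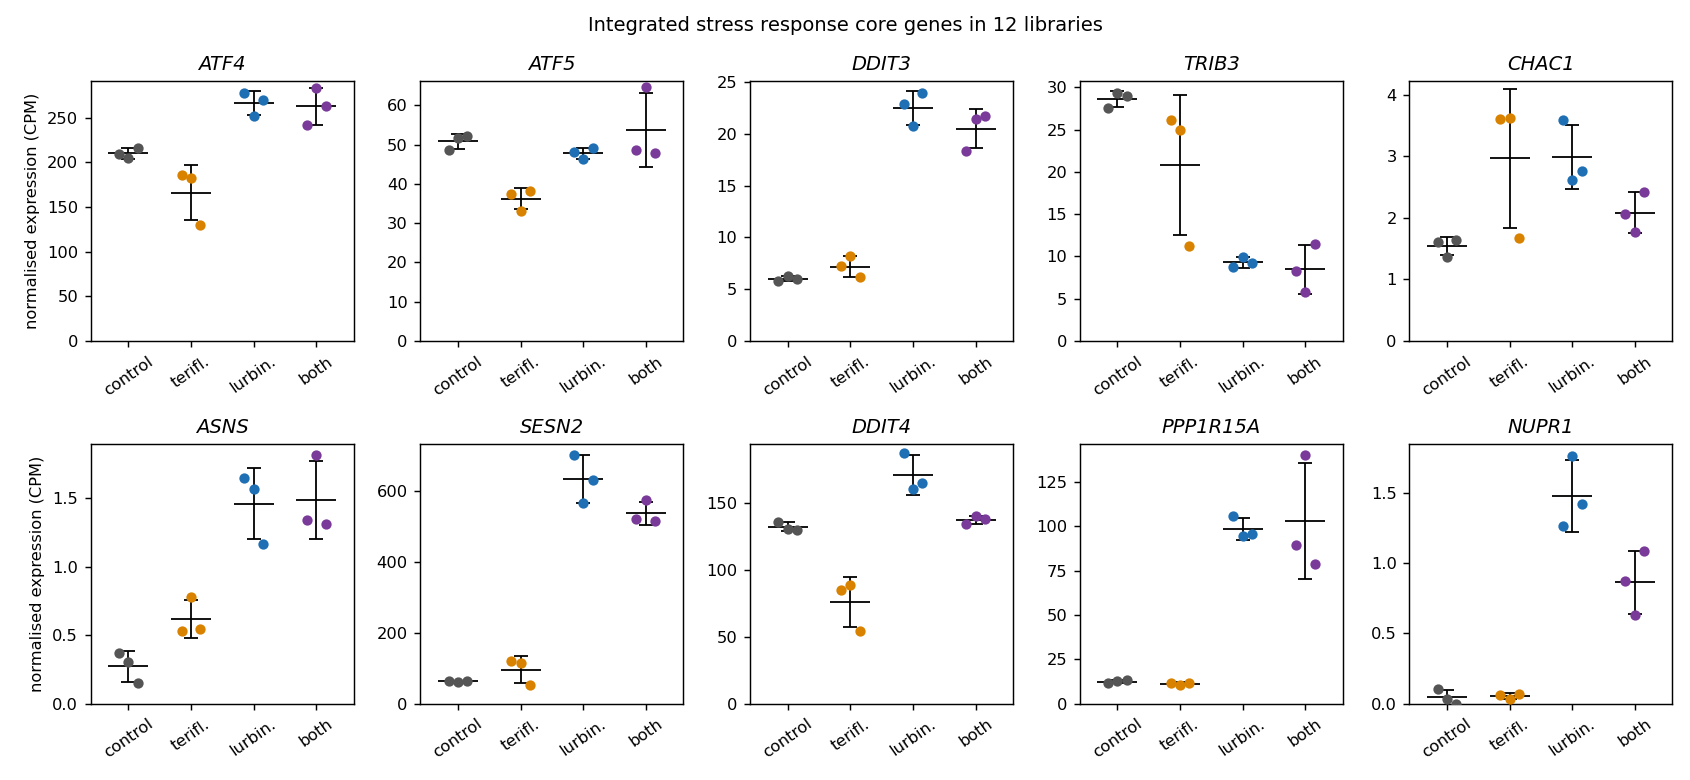
Normalised level in CPM of the 10 core genes in each library of control, teriflunomide, lurbinectedin and combination spheroids, with points for libraries and bars for the group mean. SESN2, PPP1R15A and DDIT3 separate the libraries with lurbinectedin from those without it. TRIB3 lies lower in them than in control, but the third teriflunomide library lies among them.

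ATF4 (ENSG00000128272.17, chr22:39519695-39522683, plus strand, GRCh38) encodes the transcription factor at the centre of the response. Its level was 210, 205 and 216 CPM in the 3 control libraries and 277, 252 and 270 CPM with lurbinectedin, with no overlap. The log2 fold change was 0.34 (SE 0.123, adjusted p 0.0226 by edgeR). The call was lost without the first or second control library or the first or the third lurbinectedin library, where the adjusted p reached 0.0931 and the log2 fold change stayed between 0.30 and 0.37. The call was also lost with no filter on low counts (0.27, edgeR adjusted p 0.0930) and with scaling by library size alone (0.11, edgeR adjusted p 0.605). That scaling moved the median of all genes by -0.23, from 0.05 to -0.18, and the share of calls that were higher from 50.2% to 39.2%.

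ATF5 (ENSG00000169136.12, chr19:49928702-49933935, plus strand), a related factor whose translation is also controlled through eIF2, was at 48.6, 51.6 and 52.2 CPM in control and at 48.1, 46.2 and 49.0 CPM with lurbinectedin. The groups overlapped, and the log2 fold change was -0.09 (SE 0.123, adjusted p 0.532 by edgeR). With library size as the only scaling it was -0.32 and called (edgeR adjusted p 0.0228).

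DDIT3 (ENSG00000175197.13, chr12:57516588-57521737, minus strand) encodes CHOP, a C/EBP-family factor known for its link to cell death under prolonged stress. Its level was 5.76, 6.25 and 6.0 CPM in control and 22.9, 20.8 and 24.0 CPM with lurbinectedin. Every lurbinectedin library was above every control library. The log2 fold change was 1.91 (SE 0.136, adjusted p 2.05e-08 by edgeR). Of its exon bases, 39.6% are shared with other genes, chiefly MARS1 on the opposite strand. The use of strand in counting is not given in the sources used here, so its level and fold change are uncertain.

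PPP1R15A and TRIB3 act as feedback. PPP1R15A (GADD34; ENSG00000087074.8, chr19:48872421-48876058, plus strand) directs protein phosphatase 1 to eIF2. It was at 11.6, 12.5 and 13.1 CPM in control and at 106, 94.7 and 95.4 CPM with lurbinectedin, a log2 fold change of 2.99 (SE 0.185, adjusted p 5.74e-09 by edgeR). Its constitutive relative PPP1R15B also rose, from 150 ± 3.89 to 244 ± 6.60 CPM (SD, n = 3 libraries), with a log2 fold change of 0.70 (edgeR adjusted p 2.21e-05). TRIB3 (ENSG00000101255.12, chr20:362835-397559, plus strand) encodes a pseudokinase that restrains ATF4 and AKT. Its 3 control libraries were at 27.5, 29.3 and 29 CPM and its lurbinectedin libraries at 8.72, 9.97 and 9.20 CPM. The groups were far apart, and TRIB3 fell by 1.62 on the log2 scale (SE 0.280, adjusted p 0.000136 by edgeR). Of its paralogs, TRIB1 rose by 1.5 (edgeR adjusted p 1.11e-06) and TRIB2 did not pass the expression filter.

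The metabolic members were expressed at low levels. CHAC1 (ENSG00000128965.13, chr15:40952962-40956512, plus strand), which degrades glutathione, was at 1.61, 1.37 and 1.64 CPM in control and at 3.59, 2.62 and 2.76 CPM with lurbinectedin. The groups did not overlap, and its log2 fold change was 0.95 (SE 0.273, adjusted p 0.00661 by edgeR), a call lost with library size as the only scaling (0.71, adjusted p 0.0814). ASNS (ENSG00000070669.17, chr7:97851677-97872542, minus strand), asparagine synthetase, had 11, 9 and 5 counts in the control libraries and 34, 40 and 32 with lurbinectedin. Its log2 fold change was 2.41 (SE 0.325, adjusted p 1.37e-05 by edgeR), and the ratio of summed counts per effective library size was 5.36, with a 95% exact interval of 3.44 to 8.65 that covers counting error only. A second annotated gene on the same strand, ENSG00000284707, contains 96.1% of the coding bases of ASNS, and how reads shared by both genes were counted is not given in the sources used here. The level of ASNS and its fold change are therefore uncertain.

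SESN2 and DDIT4 encode inhibitors of mTORC1. SESN2 (ENSG00000130766.5, chr1:28259518-28282491, plus strand), a leucine sensor known as a target of both ATF4 and p53, was at 63.4, 61.1 and 64.0 CPM in control and at 700, 565 and 630 CPM with lurbinectedin. The log2 fold change was 3.33 (SE 0.241, adjusted p 2.55e-08 by edgeR). Among the sestrins, the p53 target SESN1 rose by 2.53 (edgeR adjusted p 1.20e-10) and SESN3 fell by 1.01 (edgeR adjusted p 0.000879). DDIT4 (REDD1; ENSG00000168209.6, chr10:72273919-72276036, plus strand), which acts through the TSC complex, was at 136, 131 and 130 CPM in control and at 188, 160 and 165 CPM with lurbinectedin. The groups did not overlap, but the log2 fold change of 0.37 (SE 0.146, adjusted p 0.0348 by edgeR) was called in only 4 of the 12 fits that left out 1 library. The call was lost without any 1 control or lurbinectedin library and without the first or second combination library, with adjusted p up to 0.159 and values of 0.29 to 0.40. It was also lost with the size factors of DESeq2 in edgeR (0.35, adjusted p 0.0501), with no filter (0.30, edgeR adjusted p 0.0688) and with library size as the only scaling (0.13, edgeR adjusted p 0.583).

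NUPR1 (ENSG00000176046.9, chr16:28532708-28539008, minus strand), a small stress-induced chromatin protein, had 3, 1 and 0 counts in the control libraries and 26, 45 and 39 with lurbinectedin. The ratio of summed counts per effective library size was 34.8, with a 95% exact interval of 13.2 to 130. In the library at 0, a floor of 3 counts corresponds to at most 0.145 CPM, the highest such floor among the 12 libraries. edgeR called NUPR1 higher (log2 fold change 4.98, SE 0.494, adjusted p 6.51e-07). Of the coding bases of NUPR1, 47.6% lie in a second annotated gene on the same strand that had 0 counts. The level and fold change of NUPR1 are uncertain, as for ASNS.

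Per kilobase of annotated exon, which allows a rough comparison of genes, the order of the members differed between control and lurbinectedin. The annotated length, 5508 bp for NUPR1 with 317 coding bases, may exceed that of the transcript present. The places of ASNS, NUPR1 and DDIT3 are uncertain also because they share bases with other genes. In control, ATF4 led at 80.4 ± 2.26 CPM per kb (SD, n = 3 libraries), followed by DDIT4 at 62.4 ± 1.63, SESN2 at 18.1 ± 0.445 and ATF5 at 17.6 ± 0.678, the last pair within their spread. TRIB3 (8.69 CPM per kb), DDIT3 (4.60), PPP1R15A (4.04) and CHAC1 (0.751) came next, and ASNS (0.0558) and NUPR1 (0.00811) were lowest. With lurbinectedin SESN2 led at 182 ± 19.4 CPM per kb, ahead of ATF4 at 102 ± 5.05 and DDIT4 at 80.7 ± 6.93. PPP1R15A came next at 32.2 ± 2.04, and DDIT3 (17.3 ± 1.26) and ATF5 (16.5 ± 0.496) lay within their spread, as did ASNS (0.298 ± 0.0529) and NUPR1 (0.268 ± 0.0464).

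Fold changes under lurbinectedin varied with the genomic span of the gene. Among 5 bins of genes of equal number, the median log2 fold change was 0.69 in genes of 53 to 5261 bp, 0.62 in the next bin, 0.28 in the middle bin and -1.86 in the longest genes. ATF4, ATF5, DDIT3, CHAC1, DDIT4 and PPP1R15A lie in the shortest bin, NUPR1 in the next, and TRIB3, ASNS and SESN2 in the middle one. Against those medians, ATF4 (0.34), DDIT4 (0.37) and ATF5 (-0.09) were below the median of their bin, while DDIT3, PPP1R15A, SESN2, ASNS, NUPR1 and CHAC1 were above it. TRIB3 was below the median of its bin. The part of gene span in these fold changes was not tested.

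**Figure D2:**
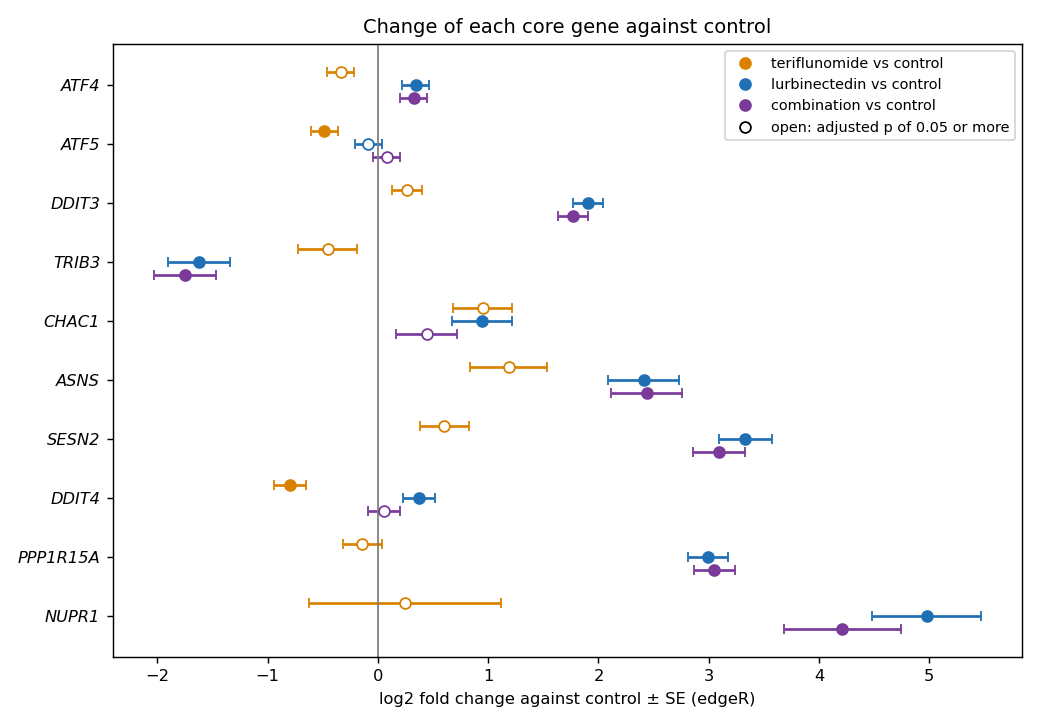
Log2 fold change of each core gene, with bars for the standard error. Filled points are called by edgeR at an adjusted p under 0.05. Against control, the values with lurbinectedin and with the combination lie close together, and no gene is called between the combination and lurbinectedin.

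Upstream of ATF4, none of the transcripts of the 4 eIF2 kinases was called higher with lurbinectedin. EIF2AK2, which encodes PKR, went from 192 ± 10.3 to 75.5 ± 10.5 CPM (SD, n = 3 libraries) and fell by 1.34 on the log2 scale (edgeR adjusted p 3.04e-05). EIF2AK3 (PERK) fell by 0.49 (edgeR adjusted p 0.00607). EIF2AK1 (HRI) and EIF2AK4 (GCN2) were at -0.14 and -0.08 and not called (edgeR adjusted p 0.266 and 0.492), though EIF2AK1 was called lower without the third teriflunomide library (edgeR adjusted p 0.0418). Over the 21 genes of the kinases, their regulators, eIF2, eIF2B and the phosphatase, 6 were called higher and 8 lower, with a median of -0.08, where over all genes 36.0% were called higher and 35.7% lower. The smallest adjusted p values belonged to DNAJC3, an inhibitor of PKR and PERK, to EIF2B3, a subunit of the exchange factor of eIF2, and to OMA1, the mitochondrial protease that relays stress to HRI. They fell by 2.21, 2.09 and 2.38 (edgeR adjusted p 1.18e-08, 1.40e-08 and 2.84e-08).

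Among 7 partner factors of ATF4 and DDIT3, 3 were called higher and 1 lower with lurbinectedin, against the same background of 36.0% and 35.7%. ATF3, an early stress-induced repressor, had the largest log2 fold change of any partner, with levels of 3.02, 2.88 and 2.57 CPM in control and 176, 152 and 154 CPM with lurbinectedin. This was a log2 fold change of 5.83 (SE 0.155, adjusted p 8.38e-12 by edgeR). CEBPD rose by 1.78 (edgeR adjusted p 9.47e-06) and JDP2 fell by 2.44 (edgeR adjusted p 3.25e-07), while CEBPG, the common dimer partner of ATF4, was at 0.03 (edgeR adjusted p 0.838).

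The other targets of ATF4 were more often called lower than higher. Of 35 tested targets in amino acid synthesis, transport, tRNA charging and secretion, 8 were called higher and 19 lower with lurbinectedin, against 36.0% and 35.7% of all genes, and their median log2 fold change was -0.31. GDF15, a secreted stress cytokine that p53 also induces, rose from 3.12 ± 0.0427 to 62.7 ± 3.99 CPM (SD, n = 3 libraries), a log2 fold change of 4.33 (edgeR adjusted p 1.32e-09). PSAT1 of serine synthesis fell by 1.47 and EPRS1, the glutamyl-prolyl-tRNA synthetase, by 1.34 (edgeR adjusted p 1.03e-07 and 7.95e-08). Of the amino acid transporters, SLC7A5 rose by 1.02 (edgeR adjusted p 0.000251).

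**Figure D3:**
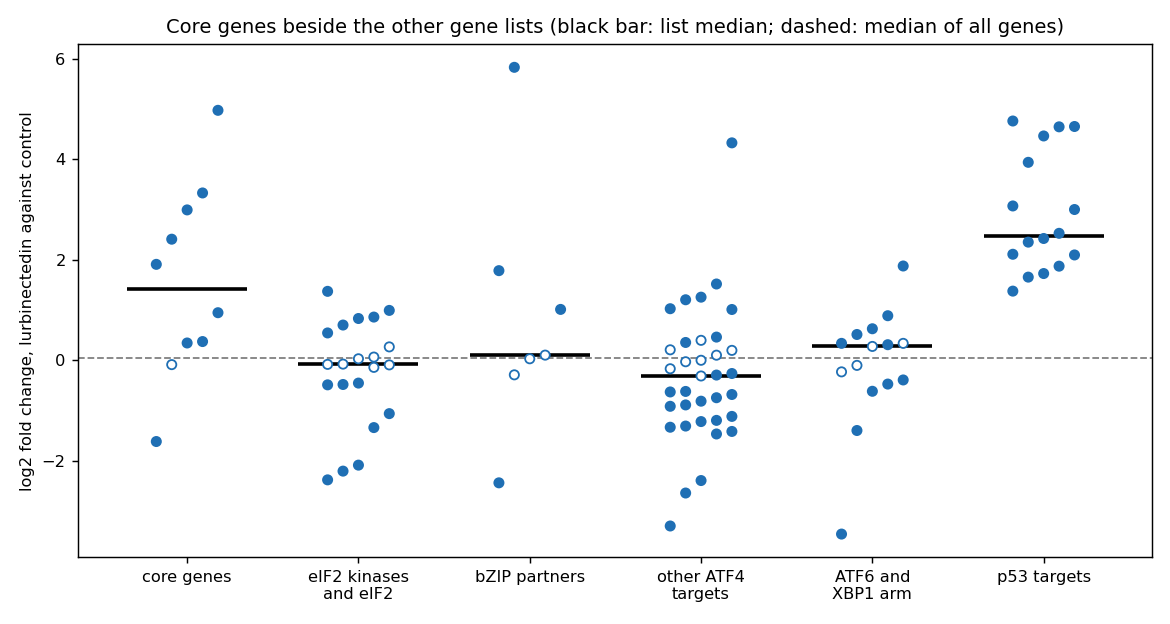
Log2 fold changes of the members of each gene list against control. Each point is a gene and each bar the list's median. With lurbinectedin the median is 1.43 for the core, -0.31 for the other ATF4 targets and 2.47 for the p53 targets.

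In the ATF6 and XBP1 arm of the unfolded protein response, 6 of 15 tested genes were called higher and 5 lower with lurbinectedin, near the shares over all genes (36.0% and 35.7%), with a median of 0.27. ATF6 itself fell by 3.46 and the degradation adaptor SEL1L by 1.40 (edgeR adjusted p 8.85e-10 and 1.52e-07), while the chaperone DNAJB9 rose by 1.88 (edgeR adjusted p 1.32e-06). All 16 p53 targets were called higher with lurbinectedin, against 36.0% of all genes, with a median of 2.47. FDXR rose by 4.65 (edgeR adjusted p 8.60e-11). The core genes and these lists were chosen with earlier results of these data known, and no test of a list against other genes was made.

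Teriflunomide against control asked whether the DHODH inhibitor alone moved the core. ATF5 and DDIT4 fell, 2 of 10 members, and no member was called higher, where 6.01% of all genes were called, 3.88% higher and 2.13% lower. A total of 6 members had an unadjusted p under 0.05, against 4143 of all 16683 genes. DESeq2 called 4 members, against 1907 of all genes. The median log2 fold change was 0.05 over the members and 0.03 over all genes. The groups did not overlap for 2 members that were higher and 4 that were lower, against 20.1% and 16.7% of all genes.

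ATF5 was at 37.4, 33.1 and 38.3 CPM with teriflunomide, below every control library, and fell by 0.49 on the log2 scale (SE 0.124, adjusted p 0.0359 by edgeR). This call was lost in 7 of the 12 fits that left out 1 library: any 1 of the control or lurbinectedin libraries, or the second teriflunomide library. The adjusted p then reached 0.145, while the values stayed between -0.53 and -0.42. DDIT4 was at 84.9, 88.7 and 54.4 CPM and fell by 0.80 (SE 0.147, adjusted p 0.00807 by edgeR). Leaving out any 1 library kept that call, with values of -0.92 to -0.61, but library size as the only scaling gave -0.85 with an adjusted p of 0.0622 and a fit on the 2 groups alone -0.82 with 0.0751.

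Several of these results differed with and without the third teriflunomide library. SESN2 was at 119 and 115 CPM in the first and second teriflunomide libraries and at 51.8 CPM in the third, against 61.1 to 64.0 CPM in control. CHAC1 was at 3.61, 3.62 and 1.67 CPM in the same order, and TRIB3 at 26.2, 25 and 11.2 CPM. For SESN2 the first and second libraries lay above control and the third below it. With all libraries the log2 fold changes were 0.60 for SESN2 (SE 0.222, adjusted p 0.120 by edgeR) and 0.95 for CHAC1 (SE 0.267, adjusted p 0.0522 by edgeR). Without the third teriflunomide library they were 0.89 (edgeR adjusted p 1.61e-05) and 1.22 (edgeR adjusted p 0.000817), and the core then had 2 members called higher and 2 lower. Over all genes, 1555 were then called, against 1002 with all libraries. ATF5 (-0.53, adjusted p 0.0109) and DDIT4 (-0.61, adjusted p 0.000264) kept their calls in that edgeR fit. With all 12 libraries, a fit with no filter on low counts also called SESN2 (0.58, edgeR adjusted p 0.000433) and CHAC1 (0.93, edgeR adjusted p 0.00426), and DESeq2 called CHAC1 (adjusted p 0.0170). With the second combination library left out as well, DDIT3 at 0.36 and ASNS at 1.26 were also called higher (edgeR adjusted p 0.0473 and 0.0286). Over all genes, 2757 were called there. The mitochondrial share of the third teriflunomide library was 22.6%, and its part in these values was not tested.

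**Figure D4:**
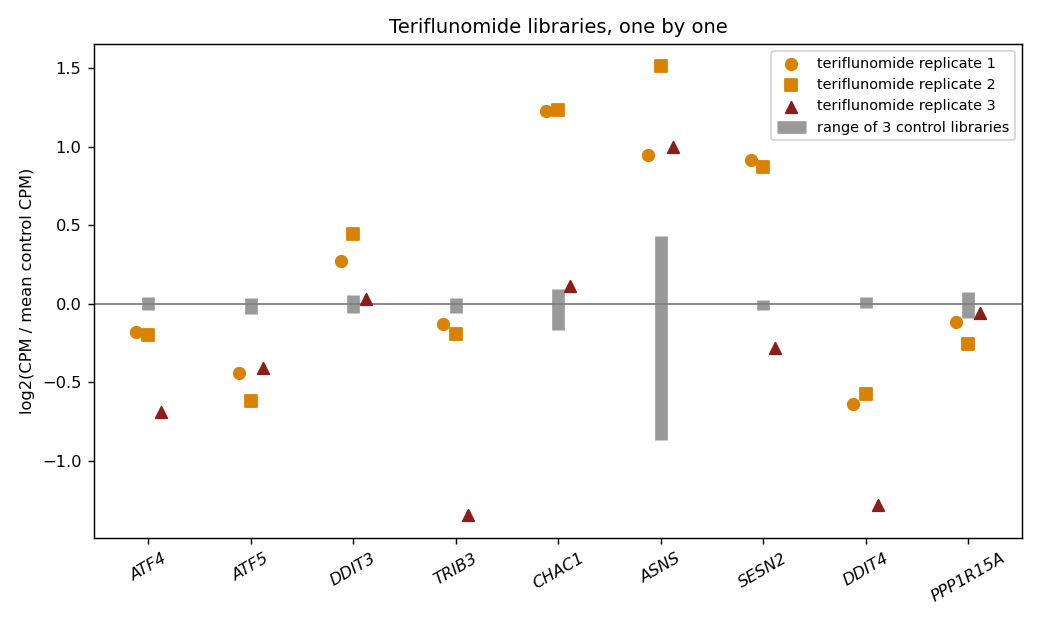
Log2 ratio of each teriflunomide library to the mean of the control libraries for the core genes except NUPR1, for which a control library had 0 counts. The third library lies apart from the first and second for SESN2, CHAC1, TRIB3, ATF4 and DDIT4. Only for SESN2 does it lie on the other side of the control mean.

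The other members were not called with teriflunomide by edgeR. ATF4 was at 185, 183 and 130 CPM, below every control library (log2 fold change -0.34, SE 0.123, adjusted p 0.116). Without the third teriflunomide library ATF4 was at -0.19 (edgeR adjusted p 0.162). ASNS had 18, 26 and 16 counts (log2 fold change 1.19, SE 0.351, adjusted p 0.0613), and its ratio of counts to control was 2.31 with a 95% exact interval of 1.43 to 3.84. DESeq2 called ASNS higher (1.19, adjusted p 0.0409). DDIT3 was at 7.27, 8.17 and 6.13 CPM (0.26, SE 0.136, adjusted p 0.251) and PPP1R15A at 11.4, 10.4 and 11.9 CPM (-0.14, SE 0.179, adjusted p 0.649), both overlapping control. NUPR1 had 2, 1 and 2 counts, under the floor of 3 counts in each library.

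Beyond the core, ATF3 rose with teriflunomide from 2.82 ± 0.229 to 4.86 ± 0.562 CPM (SD, n = 3 libraries), a log2 fold change of 0.79 (SE 0.146, adjusted p 0.00832 by edgeR). That call was lost without the third control library (edgeR adjusted p 0.0618). Of the 35 other ATF4 targets, 2 were called higher and 3 lower, against 3.88% and 2.13% of all genes. The groups did not overlap for 3 that were higher and 19 that were lower, against 20.1% and 16.7% of all genes. SLC7A5 and SLC7A1, transporters of neutral and cationic amino acids, fell by 0.88 and 0.62 (edgeR adjusted p 0.0180 and 0.00740). The call of SLC7A5 was lost without any 1 control library (edgeR adjusted p up to 0.0835) and that of SLC7A1 without the third (edgeR adjusted p 0.0508). GDF15 rose by 0.83 (edgeR adjusted p 0.0435), with the third teriflunomide library at 3.37 CPM and the others at 5.83 and 7.40. Its call was lost in 10 of the 12 fits that left out 1 library, with an adjusted p up to 0.147, and was kept without the third teriflunomide library (edgeR adjusted p 0.000259) or the third combination library. Without the third teriflunomide library, 2 of these targets were called higher and 8 lower, and without the second combination library as well, 3 and 12. Over all genes, 1555 were called in the first of these fits and 2757 in the second, against 1002 with all libraries.

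Of the 21 kinase and eIF2 genes, 1 was called with teriflunomide, where 6.01% of all genes were, the phosphatase subunit PPP1CC, which fell by 0.34 (edgeR adjusted p 0.0430, a call lost without any 1 control or lurbinectedin library or the first or second teriflunomide library). EIF2AK4 was at 0.35 (edgeR adjusted p 0.0675) and was called without the second combination library (edgeR adjusted p 0.0402). In the unfolded protein response list SDF2L1, an endoplasmic reticulum cochaperone, fell by 0.66 (edgeR adjusted p 0.0215, up to 0.0964 without any 1 control library or the second teriflunomide library), and ATF6 was at 0.47 (edgeR adjusted p 0.0800). Of the 16 p53 targets, 10 were called higher and none lower, against 3.88% and 2.13% of all genes, with a median of 0.88. Without the third teriflunomide library 14 were called higher, where 1555 of all genes were called in either direction. BTG2 and TP53INP1 rose by 1.30 and 1.29 (edgeR adjusted p 5.55e-05 for each). SESN1 rose by 0.85 (edgeR adjusted p 0.000470) and SESN3 by 0.92 (edgeR adjusted p 0.0218), so that SESN3 was higher with teriflunomide and lower with lurbinectedin. The teriflunomide call of SESN3 was lost without any 1 control library (edgeR adjusted p up to 0.0977).

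The combination against control gave 6 members called higher and 1 lower by edgeR, where 68.4% of all genes were called, 34.1% higher and 34.4% lower. The groups did not overlap for 7 members that were higher and 1 that was lower, against 38.7% and 38.5% of all genes. Both this comparison and that of lurbinectedin use the same control libraries, so their values are set side by side and their likeness is no separate result. DDIT3 rose by 1.77 in the combination and 1.91 with lurbinectedin alone, PPP1R15A by 3.05 and 2.99, and SESN2 by 3.09 and 3.33. ASNS rose by 2.44 and 2.41, NUPR1 by 4.21 and 4.98, and ATF4 by 0.32 and 0.34, while TRIB3 fell by 1.75 and 1.62. CHAC1 was at 0.44 in the combination (edgeR adjusted p 0.171), DDIT4 at 0.06 (adjusted p 0.743) and ATF5 at 0.08 (adjusted p 0.587). None of these was called, and with library size as the only scaling DDIT4 and ATF5 were each at -0.11. The ATF4 call (edgeR adjusted p 0.0308) was lost without any 1 control library, the third lurbinectedin library, or the second or the third combination library, with an adjusted p up to 0.121 and values of 0.26 to 0.38. It was also lost with library size as the only scaling (0.15, edgeR adjusted p 0.474) and with no filter (0.26, edgeR adjusted p 0.105). With the third teriflunomide library left out, CHAC1 was called at 0.44 (edgeR adjusted p 0.0465).

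The combination against lurbinectedin asked what teriflunomide added when lurbinectedin was present. edgeR called 0 of 10 members and 0.0% of all genes, with 1 member and 2599 genes at an unadjusted p under 0.05, and DESeq2 called 0 members and 584 genes. CHAC1, DDIT4 and NUPR1 were lower in every combination library than in any lurbinectedin library, 3 of 10 members against 12.6% of all genes in that direction. DDIT4 was at 134, 140 and 138 CPM in the combination, near its control level (log2 fold change against lurbinectedin -0.31, SE 0.146, edgeR adjusted p 0.321). CHAC1 was at 2.06, 1.77 and 2.42 CPM (-0.50, SE 0.268, edgeR adjusted p 0.378). NUPR1 had 24, 15 and 34 counts (-0.76, SE 0.308, edgeR adjusted p 0.270), and its ratio of counts to lurbinectedin was 0.592, with a 95% exact interval of 0.434 to 0.803 for counting error only.

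These calls differed when single libraries were left out. Without the third teriflunomide library, which belongs to neither group of this contrast but shares the fit, DDIT4 was called lower at -0.31 (edgeR adjusted p 0.0150). Without the second combination library as well, DDIT4 was at -0.32 (edgeR adjusted p 0.00438) and SESN2 at -0.29 (edgeR adjusted p 0.0108), both called. Over all genes, 2067 were called in the first of these fits and 3640 in the second. In the second combination library, PPP1R15A was at 140 CPM and ATF5 at 64.6 CPM, against 89.4 and 79.0 CPM and 48.5 and 47.9 CPM in the first and the third. TRIB3 was lowest there, at 5.73 CPM, against 8.22 and 11.5 CPM. This library had a mitochondrial share of 24.9%, whose part in these values was not tested.

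Against teriflunomide alone, the combination had 8 members called higher and 1 lower, where 70.9% of all genes were called, 35.2% higher and 35.8% lower. PPP1R15A rose by 3.19 and SESN2 by 2.49, ATF4 by 0.66 (edgeR adjusted p 0.000276) and DDIT4 by 0.86 (edgeR adjusted p 0.000138). Without the third teriflunomide library ATF4 rose by 0.51 (edgeR adjusted p 2.99e-05). TRIB3 fell by 1.29 (edgeR adjusted p 0.000878), though its combination and teriflunomide libraries overlapped. CHAC1 was at -0.51 and not called (edgeR adjusted p 0.0978), but without the third teriflunomide library it was called lower at -0.79 (edgeR adjusted p 0.00111).

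The interaction is the effect of teriflunomide with lurbinectedin present minus its effect without it. edgeR called 0 of 10 members and 0.258% of all genes, 43 in number, while 5 members and 1726 genes had an unadjusted p under 0.05 and DESeq2 called 2 members, CHAC1 and ATF5, and 258 genes. With no filter on low counts, edgeR called CHAC1 (-1.42, adjusted p 0.00938) and SESN2 (-0.81, adjusted p 0.00314). CHAC1 had a value of -1.45 (SE 0.378, adjusted p 0.181 by edgeR), since its log2 difference was 0.95 without lurbinectedin and -0.50 with it. ATF5 was at 0.65 (SE 0.175, adjusted p 0.194 by edgeR), from -0.49 and 0.17. Without the third teriflunomide library 3 members were called: CHAC1 at -1.71, SESN2 at -1.13 and ATF5 at 0.70 (edgeR adjusted p 0.00191, 0.000124 and 0.0253). Over all genes, 616 were called in that fit. With the second combination library also left out, these 3 members were called and DDIT3 too, at -0.53 (edgeR adjusted p 0.0392), where 1839 of all genes were called.

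The tested genes whose levels followed those of 2 members most closely were taken over all 12 libraries among 10436 genes with a mean of at least 5 CPM. For ATF4 these were PCGF2 (Pearson r 0.990), PSMD3 (0.987) and SNHG11 (0.986). For DDIT3 they were PIP4K2C (0.997), ERFE (0.997) and PLK3 (0.996). These correlations are a description, and all 12 points share the split between libraries with and without lurbinectedin.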

How the data were processed

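Counts of reads per gene, raw and 1 file per library, were deposited by the authors. Per the submitters' processing notes, fastp 0.23.2, STAR 2.7.9, Subread featureCounts and hg38 were used. The use of strand and the treatment of reads shared by genes are not given in the sources used here. A name table gave symbols for 60463 of 60649 gene identifiers (99.7%). No 2 libraries held identical counts. The level of 1 lineage marker is not reported here.

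Genes were kept by filterByExpr, libraries scaled by TMM and 1 quasi-likelihood model fitted to all 12 libraries (edgeR 4.0.16, R 4.3.3; biological coefficient of variation 14.5%). A gene counted as called where its Benjamini-Hochberg p, adjusted over all 16683 genes tested, was under 0.05. CPM uses the effective library size. Standard errors were derived from the F statistic. DESeq2 1.42.0 and other scalings, filters and sets of libraries were alternatives. The script was tested on simulated data. Intervals cover counting error only.

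Named besides the members were the eIF2 kinases, PPP1R15B, ATF3, paralogs, the 3 genes of each list with the smallest adjusted p with lurbinectedin and the 2 with teriflunomide, and the 3 genes nearest to ATF4 and DDIT3. The members and lists were chosen with earlier results of these data known. Leaving out the 2 libraries with the highest mitochondrial share was chosen after seeing the data.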

Additional observations from a re-analysis of the deposited data

Results flagged for a closer look

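The interaction of the drugs was called by edgeR for 5 of the listed genes outside the core, each with a lower log2 effect of teriflunomide when lurbinectedin was present. For ATF3 it was -1.01 (SE 0.189, edgeR adjusted p 0.0475), a call that held in only 2 of the 12 fits that left out 1 library: those without the third teriflunomide library (adjusted p 0.00604) or the second combination library (adjusted p 0.0275). It was also lost with a filter at 1 CPM (adjusted p 0.0514), the size factors of DESeq2 (0.0565), library size as the only scaling (0.239) and the replicate block (0.119). For SESN1, the p53-induced paralog of SESN2, it was -0.93 (edgeR adjusted p 0.0139). For the p53 targets BTG2 and TP53INP1 it was -1.38 and -0.94 (edgeR adjusted p 0.00227 and 0.0193). The fifth was the p53 target FAS at -1.06 (edgeR adjusted p 0.0196), named here after its value was seen. FAS lost its call when any control library, any lurbinectedin library or the first combination library was dropped. Nor was FAS called under the replicate block or when libraries were scaled by their size alone. The calls of SESN1 and TP53INP1 were lost without any 1 control or lurbinectedin library or the first combination library (edgeR adjusted p up to 0.0711 and 0.0983), and that of BTG2 was kept in all 12 fits. With library size as the only scaling the calls of SESN1 and TP53INP1 were lost (edgeR adjusted p 0.239 and 0.234) and that of BTG2 was kept (0.0157). With the replicate block TP53INP1 lost its call (edgeR adjusted p 0.0750), and SESN1 (0.0483) and BTG2 (0.0217) kept theirs.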

How the results depend on the processing

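The members called with lurbinectedin against control numbered 7 to 9 under every alternative, those with the combination against control 6 to 8 and those with the combination against teriflunomide 9 to 10. With teriflunomide against control the 2 calls became 4 with DESeq2 or no filter, 1 with library size only, with only the groups compared or at an adjusted p under 0.01, 6 without both libraries of high mitochondrial share, and 1 to 4 without 1 library. Between the combination and lurbinectedin, 0 calls became 2 without both libraries and 0 to 1 without 1 library, and for the interaction 0 became 2 with DESeq2 or no filter, 4 without both libraries and 0 to 3 without 1 library. The upper end of each of these 3 ranges came without the third teriflunomide library, and 1 call with teriflunomide was left without any 1 control or lurbinectedin library or the second teriflunomide library.

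Over all genes, the 1002 calls with teriflunomide became 1907 with DESeq2, 265 with library size only, 1800 with no filter, 283 with only the groups compared, 230 at an adjusted p under 0.01, 2757 without both libraries and 216 to 1555 without 1 library. Between the combination and lurbinectedin, 0 became 584 with DESeq2, 612 with no filter, 94 with only the groups compared, 3640 without both libraries and 0 to 2067 without 1 library. For the interaction, 43 became 258 with DESeq2, 6 with library size only, 195 with no filter, 5 at an adjusted p under 0.01, 1839 without both libraries and 2 to 616 without 1 library. The upper ends again came without the third teriflunomide library, and without the second combination library 259 genes were called between the combination and lurbinectedin.

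With the replicate number as a block, the core had 1 call with teriflunomide, ATF5 no longer being called (-0.48, edgeR adjusted p 0.0842), and all genes 415 there and 8 in the interaction. After each group's mean was subtracted from the log2 CPM, same-numbered libraries of different groups, 18 pairs, correlated at -0.369 to 0.127 (median -0.0289). The 36 other pairs between groups correlated at -0.183 to 0.320 (median 0.0166). These values gave no sign that the numbers pair the libraries, but with 3 libraries per group they cannot settle it.

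Of 1249 recomputed member values, 18 changed sign, none of a called result. With 1 library left out at a time, NUPR1 with teriflunomide ranged from -0.35 to 1.47 and ATF5 in the combination against control from -0.082 to 0.15. In the combination against lurbinectedin those ranges were -0.073 to 0.045 for ATF4, -0.41 to 0.085 for TRIB3, -0.23 to 0.22 for PPP1R15A and -0.13 to 0.13 for ASNS, and the PPP1R15A interaction ranged from -0.073 to 0.36. In the combination against control, library size only gave -0.11 for ATF5 and -0.11 for DDIT4, and no filter gave -0.0029 for DDIT4. In the combination against lurbinectedin, library size only gave 0.042 for ATF4. Without both libraries ATF5 was at -0.084 in the combination against control, TRIB3 at 0.088, PPP1R15A at -0.23 and ASNS at -0.12 in the combination against lurbinectedin, and the PPP1R15A interaction at -0.040. The causes were not tested. ASNS and NUPR1 had under 50 counts in every library, and whether depth or the counting of shared reads limits them was not tested.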
